A study of Mus musculus with 4 samples.

Results

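In thymus of p53 AD/AD mice, 392 places at the ends of protein-coding genes carried a summit of all 3 deposited ChIP-seq lists: p53 replicate 1, p53 replicate 2 and PPAR-alpha. A summit is the base of highest read pile-up in a called peak. The 392 sites are those of the 3608 summits of p53 replicate 1 that lie on chromosomes 1 to 19, have a summit of each other list within 500 bp, and lie within 1 kb of either end of a RefSeq protein-coding gene. Summits in a run of 3 or more within 10 kb were dropped first. The sites were thus chosen by the measured positions of the summits. No score entered the choice, but the positions come from the same calls as the scores, so scores and the sharing itself are given as descriptions without a test.

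Every library was made from thymus of mice carrying p53 AD on both chromosomes (p53 AD/AD), aged 4 weeks, with no treatment stated. There were 2 p53 libraries, a single PPAR-alpha library and an input library that is not analysed here. No group with wild-type p53 was analysed here, so every site was measured with the AD protein, named dimeric p53 in the series' design. Reads were 50 nt long for p53 and 75 nt long for PPAR-alpha, and the effect of read length cannot be told apart from that of the antibody. Whether replicates 1 and 2 came from different animals is not stated, so differences between them may be technical. The files hold no expression values, so the defining genes of thymocytes could be checked only as places of summits, as given below.

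p53 is a transcription factor that normally acts as a tetramer and binds a pair of short palindromic elements, each called a p53 half-site, with the letters CATG or a close relative at the centre. PPAR-alpha is a nuclear receptor for fatty acids that pairs with RXR on DR1 elements, direct repeats of AGGTCA with a single base between them, and is best known for switching on fatty acid oxidation in liver. Active promoters rich in CpG are open chromatin at which many factors are recovered by ChIP, and NRF1, an activator of many housekeeping genes, binds there to a GC-rich palindrome that itself holds CATG.

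The NRF1 palindrome stood near the summits of several sites, and the promoter bases around these summits are printed first. They are the 6 best-ranked of the promoters that held all 3 summits and the NRF1 letters within 50 bases of the middle one: by the lowest of their within-list ranks, Nup50 ranked 3, Psma2 6, Polh 10, Cog6 38, Pomt1 44 and Ints2 52 of 392. All stretches are RefSeq sequence of GRCm38.p6, 5′ to 3′ on the gene's strand, and capitals mark matches to the NRF1 letters GCGCATGCG on either strand, which overlap as GCGCATGCGC.
Nup50 (chr15:84923191-84923291, plus strand): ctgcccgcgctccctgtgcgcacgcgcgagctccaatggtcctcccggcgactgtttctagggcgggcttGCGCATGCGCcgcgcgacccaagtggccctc
Psma2 (chr13:14613055-14613155, plus strand): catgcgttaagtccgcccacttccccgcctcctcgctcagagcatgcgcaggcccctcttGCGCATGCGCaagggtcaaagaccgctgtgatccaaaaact
Polh (chr17:46202685-46202785, minus strand): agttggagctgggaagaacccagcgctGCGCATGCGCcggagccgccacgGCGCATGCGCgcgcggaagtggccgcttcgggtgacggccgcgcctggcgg
Cog6 (chr3:53017194-53017284, minus strand): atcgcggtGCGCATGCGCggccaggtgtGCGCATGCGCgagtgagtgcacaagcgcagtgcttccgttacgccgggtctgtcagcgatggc
Pomt1 (chr2:32236527-32236627, plus strand): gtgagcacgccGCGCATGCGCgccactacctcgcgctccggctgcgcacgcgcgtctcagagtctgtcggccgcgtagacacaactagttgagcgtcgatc
Ints2 (chr11:86257565-86257656, minus strand): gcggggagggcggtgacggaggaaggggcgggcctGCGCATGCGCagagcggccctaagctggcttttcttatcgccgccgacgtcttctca
Within the printed stretches, Polh and Cog6 each held the palindrome at 2 places. The Nup50 promoter also held it outside the printed stretch. At Psma2 a further match to the NRF1 letters is cut by the start of the stretch and so is not in capitals. Nup50 encodes a nuclear pore protein, Psma2 a proteasome subunit, Polh the DNA polymerase that copies past ultraviolet lesions, Cog6 a Golgi tethering subunit, Pomt1 a protein mannosyltransferase and Ints2 an Integrator subunit.

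Other high-scoring promoters held the NRF1 letters with another middle base, GCGCNTGCG, a relaxed form that was searched after the sequences had been seen. Capitals mark those matches, on either strand.
Sprtn (chr8:124897752-124897852, plus strand): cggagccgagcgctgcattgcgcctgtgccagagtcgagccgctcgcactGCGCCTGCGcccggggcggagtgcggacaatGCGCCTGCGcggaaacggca
Cdc34 (chr10:79681996-79682096, plus strand): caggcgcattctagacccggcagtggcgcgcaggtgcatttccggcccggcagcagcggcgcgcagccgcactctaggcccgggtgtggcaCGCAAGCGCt
Armc6 (chr8:70234445-70234545, minus strand): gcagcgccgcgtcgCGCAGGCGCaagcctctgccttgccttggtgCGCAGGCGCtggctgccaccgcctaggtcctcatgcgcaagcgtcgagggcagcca
Sprtn encodes a protease that removes proteins crosslinked to DNA, Cdc34 a ubiquitin-conjugating enzyme and Armc6 an armadillo repeat protein. Neither form was found around the summits at Kmt2a, the gene of a histone H3 lysine 4 methyltransferase, and at Itprip, so these are printed as counterexamples without capitals.
Kmt2a (chr9:44881378-44881478, minus strand): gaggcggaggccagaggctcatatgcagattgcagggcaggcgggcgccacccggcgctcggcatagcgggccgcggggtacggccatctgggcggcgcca
Itprip (chr19:47919398-47919498, minus strand): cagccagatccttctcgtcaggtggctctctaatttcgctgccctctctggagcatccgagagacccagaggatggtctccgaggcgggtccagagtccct

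Exact matches to the p53 half-site letters RRRCWWGYYY were rare at the sites (R is A or G, W is A or T, Y is C or T). The 3 stretches below hold a match, in capitals, within 50 bases of the middle summit of the site.
Lsm7 (chr10:80855131-80855231, minus strand): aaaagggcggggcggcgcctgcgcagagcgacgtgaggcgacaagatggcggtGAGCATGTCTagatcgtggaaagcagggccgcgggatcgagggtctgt
4933430I17Rik (chr4:62525189-62525289, plus strand): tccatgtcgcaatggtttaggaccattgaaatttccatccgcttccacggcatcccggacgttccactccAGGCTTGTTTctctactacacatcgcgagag
Aacs (chr5:125475672-125475772, plus strand): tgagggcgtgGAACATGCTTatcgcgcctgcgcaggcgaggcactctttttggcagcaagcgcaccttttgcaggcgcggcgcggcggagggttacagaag
Lsm7 encodes a subunit of the ring that binds spliceosomal U6 RNA, and Aacs encodes an enzyme that activates acetoacetate. By the same measure Lsm7 ranked 34, 4933430I17Rik ranked 257 and Aacs ranked 392. At the 19 sites that scored 10 or more in all 3 lists, 18 promoters could be read, whether or not they held a summit. Of these, 6 held the NRF1 letters, 13 held them with any middle base and 0 held a p53 half-site. Of the 311 promoters at the other sites, 41, 101 and 16 did.

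Promoters of 300 bases, from 250 before to 50 after the start, were held in the RefSeq table for 403 genes with an end at a site, for the 326 of them that were the nearest start of a site, for 1004 genes at the other replicate 1 summits near starts, and for 16436 protein-coding genes in all. The NRF1 letters stood in 57 of the 403 (14.1%, 10.9 to 17.9%), in 47 of the 326 site promoters (14.4%, exact 95% interval 10.8 to 18.7%), in 8.57% of the 1004 (6.91 to 10.5%) and in 2.45% of all. With any middle base the shares of the 326, the 1004 and all were 35.0%, 23.3% and 9.24%. Intervals here and below are Clopper-Pearson and cover counting error only. These shares cover the whole promoter, wherever the summits lay. At the 329 sites near starts, the promoter window held none of the 3 summits at 144 and all 3 at 77. Genes are not replicates, so no test was made.

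Site promoters were also CpG-rich: the median ratio of observed to expected CpG was 0.871 at sites, 0.847 at the other summits and 0.596 over all genes. The GC box GGGCGG stood in 64.4%, 67.1% and 47.3% of the same 3 sets, and the ETS core CCGGAAG in 21.2%, 20.6% and 12.3%. On these letters the sites were close to the other replicate 1 promoters, and both sets stood above all genes. TATAAA was scarcer, in 3.99%, 5.88% and 13.5%, and CCAAT stood in 31.0%, 35.4% and 39.1%. The palindrome TCTCGCGA stood in 5.21%, 3.98% and 1.48%. In 101-base windows around site summits the GC box stood in 23.8% (replicate 1), 32.4% (replicate 2) and 27.7% (PPAR-alpha). In CpG-rich promoters, those with a ratio of at least 0.6, a window of that length held it in 45.1%. The ETS core stood in 9.90%, 4.63% and 4.95% at site summits and in 6.39% of the CpG-rich windows. So neither stood clearly above CpG-rich promoters around the summits.

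The known elements of p53 and PPAR-alpha stood at or below their shares over all genes. The p53 half-site stood in 16 of 326 site promoters (4.91%, 2.83 to 7.85%), in 6.37% of the other replicate 1 promoters and in 7.25% of all. The DR1 element was in 0 of 326, which allows a share of up to 1.13%, and in 8 of 16436 promoters of all genes. A string this rare over all genes says little by its lack at the sites. The receptor's single AGGTCA stood in 11.7% of site promoters and 14.4% of all. All genes were poorer in CpG than the sites, and these counts say only which letters stood in these windows.

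Around the summits themselves, windows of 101 bases were read where they fitted inside a promoter. The NRF1 letters stood in 21 of 101 windows at the replicate 1 summits of sites (20.8%, 13.4 to 30.0%) and in 25 of 173 at the other summits of that list (14.5%, 9.58 to 20.6%). For replicate 2 the counts were 24 of 108 (22.2%, 14.8 to 31.2%) and 27 of 281 (9.61%, 6.43 to 13.7%). For PPAR-alpha they were 17 of 101 (16.8%, 10.1 to 25.6%) and 7 of 203 (3.45%, 1.40 to 6.98%). The intervals overlapped for replicate 1 and were apart for replicate 2 and for PPAR-alpha. They overlapped in all 3 lists in windows that reached 75 bases to each side. A window of the same length in CpG-rich promoters, those with a CpG ratio of at least 0.6, held the letters in 142 of 8184 (1.74%). These windows were centred at -94 bases from the start, not at a summit, and held a median of 8 CpG. In replicate 1, replicate 2 and PPAR-alpha the medians were 11, 11 and 10 at sites and 9, 9 and 8 at other summits. The NRF1 letters themselves hold CpG, and the sets were not matched for it. The p53 half-site stood in 144 of these 8184 (1.76%). At sites it stood in 3 of 101 replicate 1 windows (2.97%, 0.617 to 8.44%) and 1 of 108 replicate 2 windows (0.926%, 0.0234 to 5.05%). For PPAR-alpha it was 2 of 101 (1.98%, 0.241 to 6.97%), and all 3 intervals held 1.76%.

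In p53 replicate 2 the NRF1 letters also went with the score. Among replicate 2 summits that scored 10 or more, 14 of 35 windows at sites held them (40.0%, 23.9 to 57.9%) and 5 of 13 at other summits did (38.5%, 13.9 to 68.4%). Below 10 the counts were 10 of 73 (13.7%, 6.77 to 23.8%) and 22 of 268 (8.21%, 5.22 to 12.2%). In replicate 1, at 10 or more, 7 of 26 at sites (26.9%, 11.6 to 47.8%) and 5 of 11 at other summits (45.5%, 16.7 to 76.6%) held them. Below 10 the replicate 1 counts were 14 of 75 (18.7%, 10.6 to 29.3%) and 20 of 162 (12.3%, 7.71 to 18.4%). These shares were lower than at 10 or more, but the intervals overlapped. Within these score classes the p53 intervals of sites and other summits overlapped. For PPAR-alpha the counts below 10 were 12 of 65 at sites (18.5%, 9.92 to 30.0%) and 5 of 153 at other summits (3.27%, 1.07 to 7.46%), with intervals apart. At 10 or more they were 5 of 36 (13.9%, 4.67 to 29.5%) and 2 of 50 (4.00%, 0.488 to 13.7%), with intervals that overlapped. The PPAR-alpha windows also differed in CpG. Below 10 the median number was 10 at sites and 8 at other summits, and at 10 or more it was 10 and 6. The part of base composition in these differences was not tested.

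**Figure D1:**
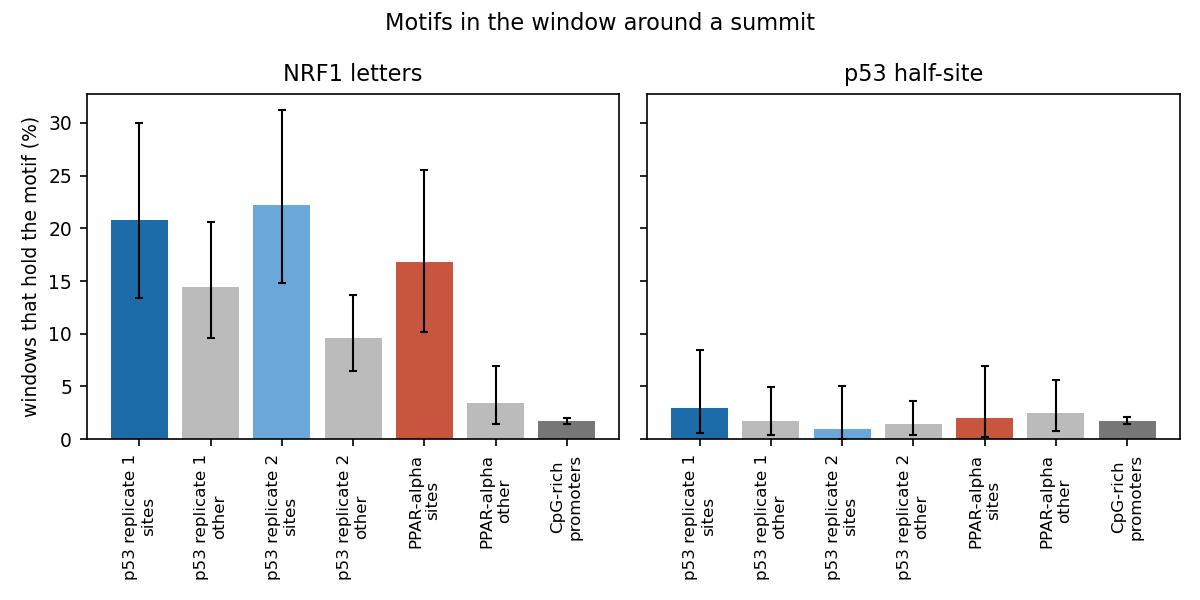
Share of 101-base windows (%) that hold the NRF1 letters (left) or a p53 half-site (right), around summits at the sites (coloured), around other summits of the same list (light grey) and in CpG-rich promoters (dark grey). Error bars are exact 95% intervals, and the NRF1 bars of the sites stand between 16.8% and 22.2% while the p53 half-site bars stand between 0.926% and 2.97%.

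Where the NRF1 letters stood in a window, their median distance from the summit was 15 bases in replicate 1, 12.5 in replicate 2 and 21 in PPAR-alpha. The nearest match was taken, and the window of 50 bases to each side itself limits these distances. No reference distance was computed. In 77 site promoters all 3 summits fell inside the printed table's window. Of these, 26 held the NRF1 letters (33.8%, 23.4 to 45.4%), and in 21 the match lay within 50 bases of the middle summit. Among promoters with a summit pair of both p53 replicates but no PPAR-alpha summit nearby, 21 of 93 held them (22.6%, 14.6 to 32.4%), and with a replicate 1 summit alone 19 of 112 did (17.0%, 10.5 to 25.2%). With a PPAR-alpha partner but no replicate 2 partner the count was the lowest, 2 of 20 (interval 1.23 to 31.7%). The 4 intervals overlapped. Each class required all of its own summits inside the window, so the classes were not chosen alike. Their median CpG numbers, in the order given, were 29, 25, 23.5 and 28.

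Each NRF1 match differs from a p53 half-site at only a few letters around the shared CATG. The searched letters themselves fix 2 or 3 mismatches to the p53 half-site over 10 bases, so this likeness is no finding about the sites. Of 57 matches in site promoters, 53 had 2 mismatches and 4 had 3, and 39 were the full palindrome. CATG standing outside NRF1 letters was in 17.8% of replicate 1, 21.3% of replicate 2 and 22.8% of PPAR-alpha windows at sites, and in 19.1%, 17.4% and 19.7% at other summits. Which protein occupied the matches was not measured.

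The label of the sites says gene boundaries, and where strand was known they were nearly all gene starts. Of 343 sites with a known strand, 329 lay within 1 kb of a start (95.9%, 93.2 to 97.8%), against 1032 of 1055 other replicate 1 summits at gene ends (97.8%, 96.7 to 98.6%). The 14 sites at an end alone included Dapk3, a death-associated protein kinase, Strn4, Vamp1 and Satb1. Ends are the outermost annotated bases, so internal starts of these genes were not considered. A start is the outermost annotated base of the gene in the gene table. Measured from it at the 329 sites, the median summit position was 65 bp downstream in replicate 1, 33 bp downstream in replicate 2 and 65 bp downstream in PPAR-alpha. The promoter table, which the sequence windows follow, places the start over 50 bp away from this base at 98 of the 329. At 10 of the 329 it lay over 1 kb away. From the promoter table's starts the medians were -12, -18 and -8 bp, slightly upstream, so these data fix no side of the start.

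**Figure D2:**
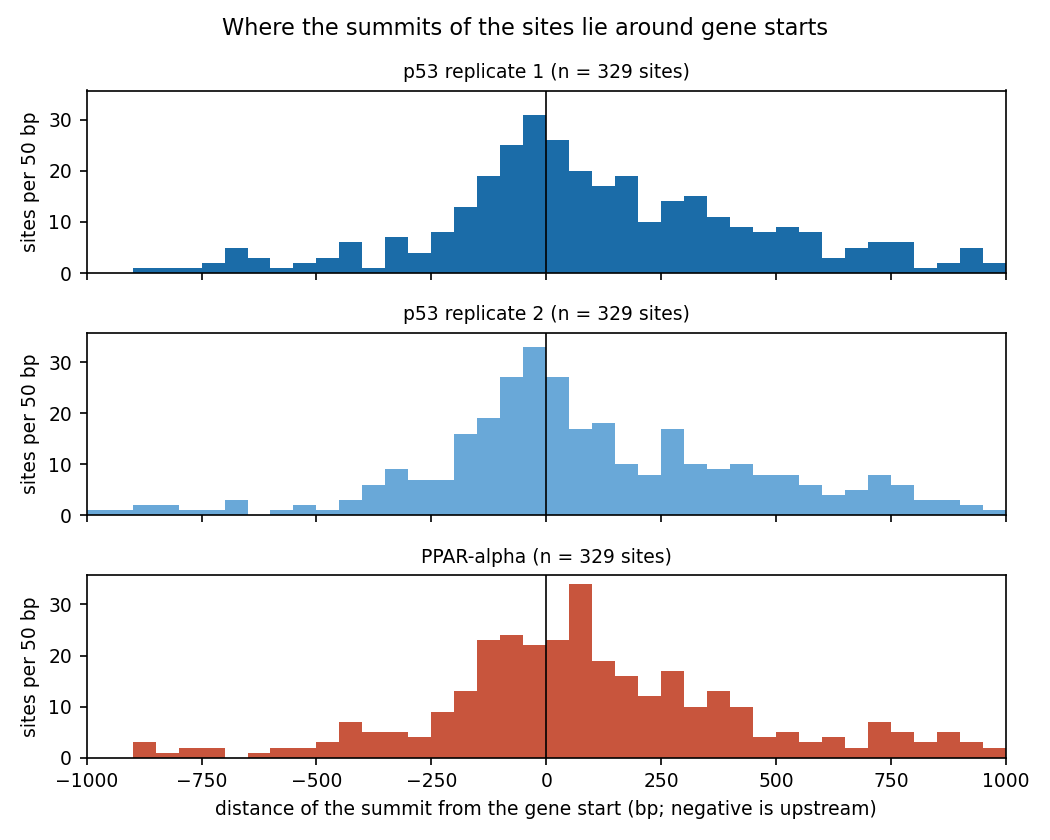
Distance of the summits from the gene start in bp (negative is upstream) for the 329 sites at a known start, in bins of 50 bp, for p53 replicate 1 (top), p53 replicate 2 (middle) and PPAR-alpha (bottom). Starts are those of the gene table, all 3 distributions crowd around them, and the few replicate 2 and PPAR-alpha summits more than 1 kb away are not drawn.

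Sites and summits shared by the p53 replicates alone lay near starts at about the same share. Within 100 bp of the start stood 102 of 329 site summits (31.0%), 98 of 323 with a replicate 2 partner only (30.3%), 27 of 168 with a PPAR-alpha partner only (16.1%) and 78 of 541 with none (14.4%). From the starts of the promoter table the counts were 99, 109, 32 and 93. Of the 19 sites that scored 10 or more in all 3 lists, 11 had their middle summit within 100 bp of a start and 5 had it over 100 and up to 250 bp upstream. None of the 40 sites whose middle summit lay over 500 bp downstream was among them. By the promoter-based starts, 9 lay within 100 bp and 7 over 100 and up to 250 bp upstream.

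A summit's score, taken here for a −log10 p- or q-value of the peak caller, ranks summits within its list. At the sites the scores ran from 1.68 to 51.3 in replicate 1, from 1.34 to 43.7 in replicate 2 and from 1.68 to 96.9 in PPAR-alpha. The medians were 5.45, 5.08 and 5.91, against 3.99, 3.62 and 4.13 at the other summits of each list near gene ends. Scores of 10 or more were reached by 49 sites in replicate 1 (12.5%), 61 in replicate 2 (15.6%) and 89 in PPAR-alpha (22.7%), where the whole lists had 5.38%, 4.3% and 16.0%. These scores come from the calls that chose the sites and support nothing further.

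**Figure D3:**
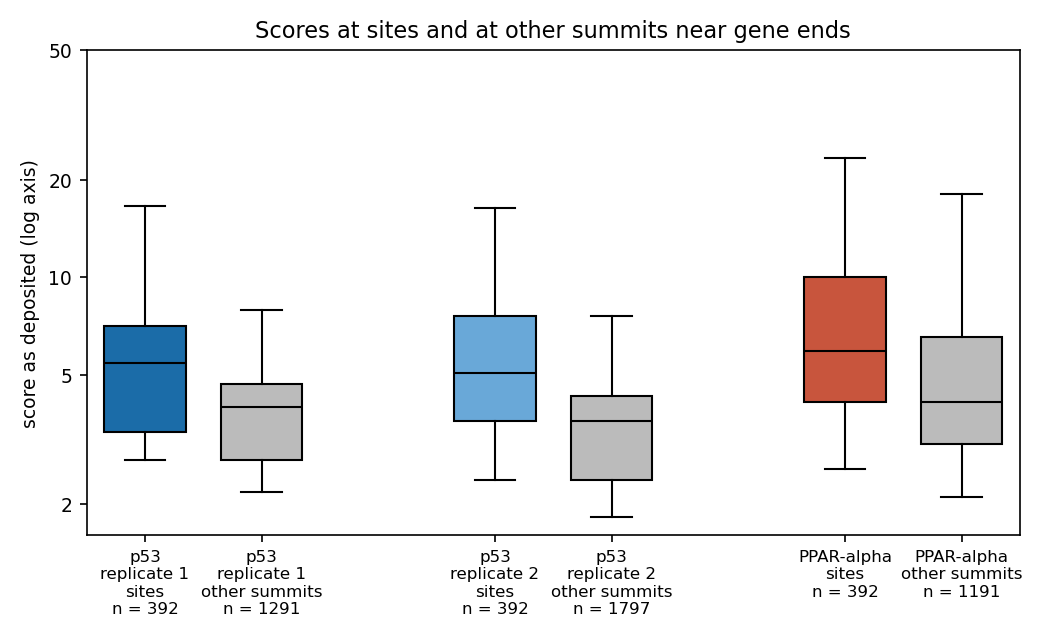
Deposited scores (log axis) of summits at the 392 sites (coloured) and of the other summits within 1 kb of a gene end (grey) in each list. Boxes span the quartiles with the median as a line, whiskers run from the 5th to the 95th percentile, and the site medians are 5.45, 5.08 and 5.91.

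Scores rose together only loosely across the sites. Spearman's rho was 0.50 between the p53 replicates, 0.34 between replicate 1 and PPAR-alpha and 0.33 between replicate 2 and PPAR-alpha, over 392 sites that share positions and possibly the input. Only 19 sites (4.85%) reached 10 in all 3 lists and 5 reached 20, while 74 stayed under 5 in all. Depth is unknown for every list, so scores are compared only within a list.

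The site at Ubr4, the gene of a large ubiquitin ligase, had the best lowest rank, with scores of 51.3 and 43.7 in the p53 replicates and 74.4 in PPAR-alpha, 215 bp upstream of the start. Sprtn and Exoc8, a divergent pair of which Exoc8 encodes an exocyst subunit, shared a site with 22.0, 22.9 and 85.5. Nup50 scored 25.3, 21.8 and 40.2. Each of these scores was among the upper ones of its list.

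Kmt2a scored 17.6, 22.9 and 51.0, with its 3 summits within 17 bp. Cdc34 scored 22.0, 15.3 and 53.3. Psma2, which shares its promoter with the mitochondrial ribosomal gene Mrpl32, scored 33.5, 37.3 and 37.1. Armc6, whose neighbour Sugp2 encodes a splicing-related protein, scored 27.6, 13.3 and 36.0.

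Ehmt1, encoding a histone H3 lysine 9 methyltransferase, scored 20.9, 11.3 and 42.3. Upf1, encoding the helicase of nonsense-mediated decay, scored 11.6, 14.3 and 60.1, with the replicate 1 summit 2 bp from the gene table's start and 146 bp upstream of the promoter table's. Polh, which shares its site with the exportin gene Xpo5, scored 25.3, 21.8 and 23.4. Polh was the only member of the p53 target list among these 10 sites.

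Some sites stood higher within the PPAR-alpha list than within a p53 list, or the reverse. Msh6, encoding a mismatch repair protein, had the highest PPAR-alpha score of all sites, 96.9, with 3.34 in replicate 1, under that list's median of 3.99, and 8.48 in replicate 2. Itprip had 86.7 beside 25.3 and 9.40, and Zfp143, encoding a promoter-binding zinc finger factor, had 70.7 beside 5.45 and 11.3. Ints13 and Fgfr1op2 shared a site with 33.5 and 24.1 for p53 and 13.0 for PPAR-alpha, and Cog6 had 26.5 and 24.1 for p53 and 10.7 for PPAR-alpha. Msh6 was named after its value was seen.

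**Figure D4:**
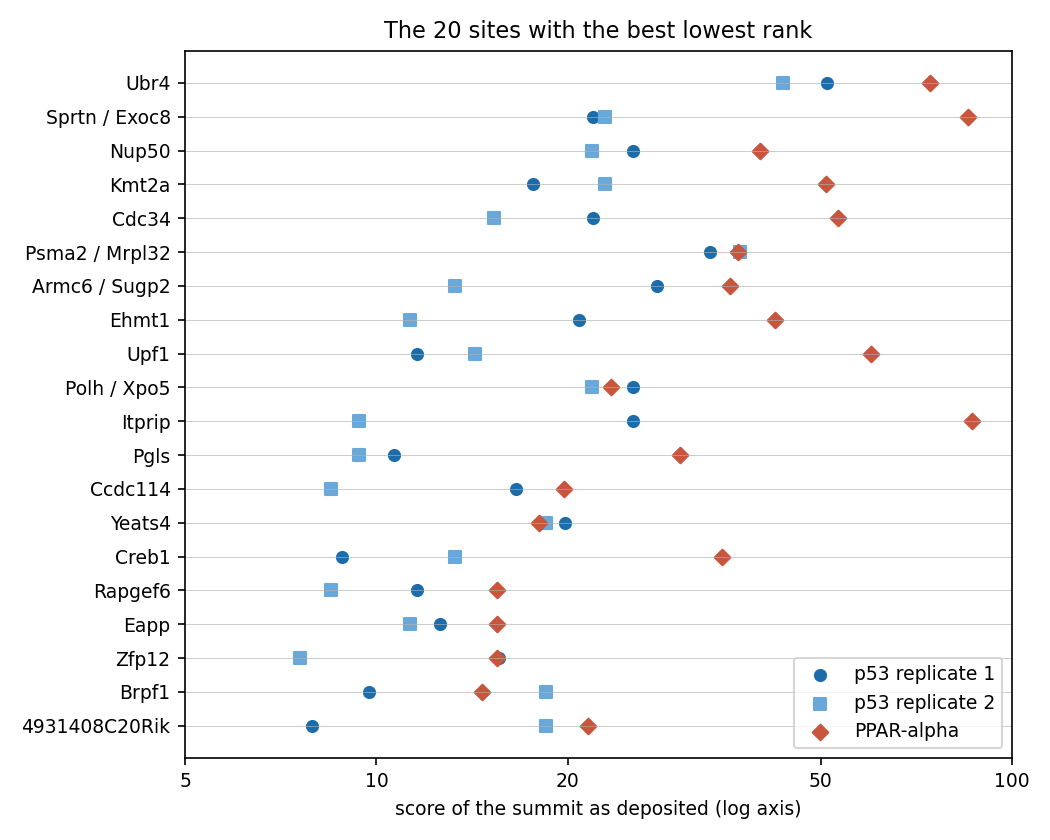
Deposited scores (log axis) of the 3 summits at the 20 sites with the best lowest within-list rank, named by the genes within 1 kb, for p53 replicate 1 (circles), p53 replicate 2 (squares) and PPAR-alpha (diamonds). Ubr4 leads in both p53 lists, and PPAR-alpha scores reach 86.7 at Itprip.

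The summits of a site lay close to each other. The median distance was 96.5 bp between the p53 replicates, 103.5 bp between replicate 1 and PPAR-alpha and 109.5 bp between replicate 2 and PPAR-alpha. All 3 summits fell within 100 bp at 112 sites, and 17 sites spanned more than 500 bp. Tightest were the Tmco3 and Dcun1d2 promoter with 4 bp, Rab33b with 7 bp and Wipi2, an autophagy gene, with 9 bp. Widest were Atf7ip with 831 bp, Jarid2, a Polycomb partner, with 824 bp, and the St7l and Capza1 promoter with 795 bp.

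High scores went with close summits. In the 196 sites of smallest span, 23.5% reached 10 in replicate 1, 26.0% in replicate 2 and 30.6% in PPAR-alpha. In the 196 of largest span the shares were 1.53%, 5.10% and 14.8%. A pair of summits at Polr2a, the gene of the largest RNA polymerase II subunit, counted as separate sites but shared their replicate 2 and PPAR-alpha partners.

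At 79 sites (20.2%, 16.3 to 24.5%) more than 1 protein-coding gene had an end within 1 kb, against 18.6% of the other replicate 1 summits at gene ends. Divergent starts on opposite strands stood at 56 sites (14.3%, 11.0 to 18.1%) and at 11.0% of the others (9.34 to 12.8%), and the intervals overlapped. Of the 56, 12 scored 10 or more in replicate 1, 14 in replicate 2 and 17 in PPAR-alpha. Trim23 with Trappc13 and Shld3, Ak6 with Taf9 and Rad17, and Rfxank with Gm45929 and Borcs8 had 3 genes each. Their scores were 18.7, 8.48 and 7.88 at Trim23, 9.72, 8.48 and 7.20 at Ak6, and 9.72, 13.3 and 4.13 at Rfxank.

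Ends of noncoding genes lay within 1 kb of 74 sites (18.9%), against 13.2% of the other summits. Long noncoding RNAs stood at 56 sites, snoRNAs at 7, snRNAs at 4, and tRNAs and miRNAs at 3 each.

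Per 100 protein-coding genes, chromosome 14 had 0.940 sites and chromosome 13 had 2.77, the lowest and highest of the 19 autosomes. Over chromosomes 1 to 19, 471 of 20665 protein-coding genes (2.28%) had an end at a site, and so did 24.4% of the genes with a replicate 1 summit at an end. The second share counts only genes at which p53 replicate 1 had a summit. Lists of genes were read against both, without a test, and 23 of 31 lists stood above 2.28%. Intervals of the second share lay above 24.4% only for splicing and chaperone genes. They held 24.4% for chromatin modifiers (32.7%, 19.9 to 47.5%) and DNA repair genes (30.8%, 14.3 to 51.8%). So did those of mitochondrial ribosomal genes (38.1%, 18.1 to 61.6%) and thymocyte identity genes (38.5%, 13.9 to 68.4%).

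As a share of all listed genes, splicing stood highest of the lists. Of 126 splicing genes 20 had a site (15.9%, 9.97 to 23.4%), which is 42.6% of the 47 with a replicate 1 summit (28.3 to 57.8%). By the second share chaperones with 52.9%, aminoacyl-tRNA synthetases with 45.5% and Integrator with 44.4% stood above it, with wider intervals. Sart3, a factor that recycles spliceosomal particles, scored 16.6, 8.48 and 13.8 at the promoter it shares with Iscu. Snrnp70, encoding a U1 particle protein, scored 8.81, 10.3 and 13.0. Others were Srsf5, Srsf7, Hnrnpk, Hnrnpa3, Sf3a2, Ddx39a and Ddx39b.

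Of 32 genes of Integrator and 3′ end processing 4 had a site (12.5%, 3.51 to 29.0%): Ints13, Ints2, Cstf1 and Cpsf1. Ints2 scored 13.6, 15.3 and 8.57 within 29 bp, and Cpsf1 stayed low with 2.74, 3.62 and 2.57. Of 61 nuclear pore and transport genes 4 had one, with Ranbp2 at 5.45, 4.33 and 2.57 and Seh1l at 4.70, 5.88 and 17.2. Mediator, polymerase and general factor genes had 6 of 123, among them Polr2i with 8.81, 4.33 and 5.91. Both groups' intervals held the share over all genes.

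Sites stood at 5 of 39 aminoacyl-tRNA synthetase genes (12.8%, 4.30 to 27.4%), 9 of 84 cytosolic ribosomal protein genes (10.7%, 5.02 to 19.4%) and 8 of 81 mitochondrial ones (9.88%, 4.36 to 18.5%). Vars, the valine enzyme, scored 14.6, 17.4 and 11.5, and Gars, the glycine enzyme, 8.81, 5.88 and 5.30. Among cytosolic ribosomal genes, Rps12 had 4.70, 5.08 and 5.91 and Rpl23 had 4.70, 5.08 and 5.30. Mrpl32 stood highest of the mitochondrial ones, through the site it shares with Psma2, and the median over their 8 sites was 6.66, 3.62 and 3.58. Of the 32 cytosolic ribosomal genes with a replicate 1 summit 28.1% had a site, near the 24.4% over all such genes.

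Translation factors had 2 of 74, Eif4a2 with 16.6 and 9.40 in the p53 replicates and Eif1ad with 7.07, 7.58 and 8.57. Modifiers of tRNA and rRNA had 5 of 137, with Nsun2, an RNA cytosine methyltransferase, at 4.70, 9.40 and 12.3. Chaperones had 9 of 99 (9.09%, 4.24 to 16.6%), which is 52.9% of the 17 with a replicate 1 summit (27.8 to 77.0%). Bag6, a quality-control factor, scored 13.6, 5.08 and 13.0, and Hspa9, the mitochondrial Hsp70, scored 5.45, 10.3 and 5.30. Proteasome genes had 3 of 52. Ubiquitin ligases and deubiquitinases, Ubr4 among them, had 7 of 415 (1.69%, 0.681 to 3.44%), or 15.9% of those with a replicate 1 summit (6.64 to 30.1%). Both intervals of the ubiquitin list held the share over all genes.

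Among nuclear genes, chromatin modifiers had 16 of 189 (8.47%, 4.92 to 13.4%) and DNA repair genes 8 of 111 (7.21%, 3.16 to 13.7%). Yeats4, encoding a histone acylation reader, scored 19.8, 18.5 and 18.0, and Kdm5a, a histone demethylase gene beside Ccdc77, scored 10.7, 7.58 and 12.3. Slx4, a scaffold of DNA nucleases, scored 15.6, 16.4 and 9.27. Smarca4, Hdac2, Setd1a, Lig4 and Tdp1 were also among them. Zinc finger protein genes had 16 of 451 (3.55%, 2.04 to 5.70%), led by Zfp12 with 15.6, 7.58 and 15.5.

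Cell cycle and replication genes had 4 of 129 (3.10%, 0.851 to 7.75%), or 12.5% of the 32 with a replicate 1 summit. Rbl1, encoding the pocket protein p107, scored 7.93, 10.3 and 5.30, and Smc4, a condensin gene, 7.93, 5.88 and 3.06. Of 64 replication-dependent histone genes 1 had a site, H4c8, with 2.18, 3.62 and 7.88. Of 41 kinase genes of growth and stress signalling 0 had one, although 13 had a replicate 1 summit, and 0 of 13 allows a share of up to 24.7%.

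Golgi and vesicle genes had 12 of 295 (4.07%), with Rab35 at 7.93, 7.58 and 19.8. Centrosome and cilium genes had 7 of 141 and respiratory chain genes 5 of 84 (5.95%), with Cox7a2l at 5.45, 4.33 and 11.5. Glycolysis, pentose phosphate and citrate cycle genes had 3 of 44 (6.82%), with Pgls, which makes 6-phosphogluconate, at 10.7, 9.40 and 30.0. The lipid synthesis list had 2 of 45, the fatty acid elongases Elovl5 and Elovl6, both under 6 in every list.

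**Figure D5:**
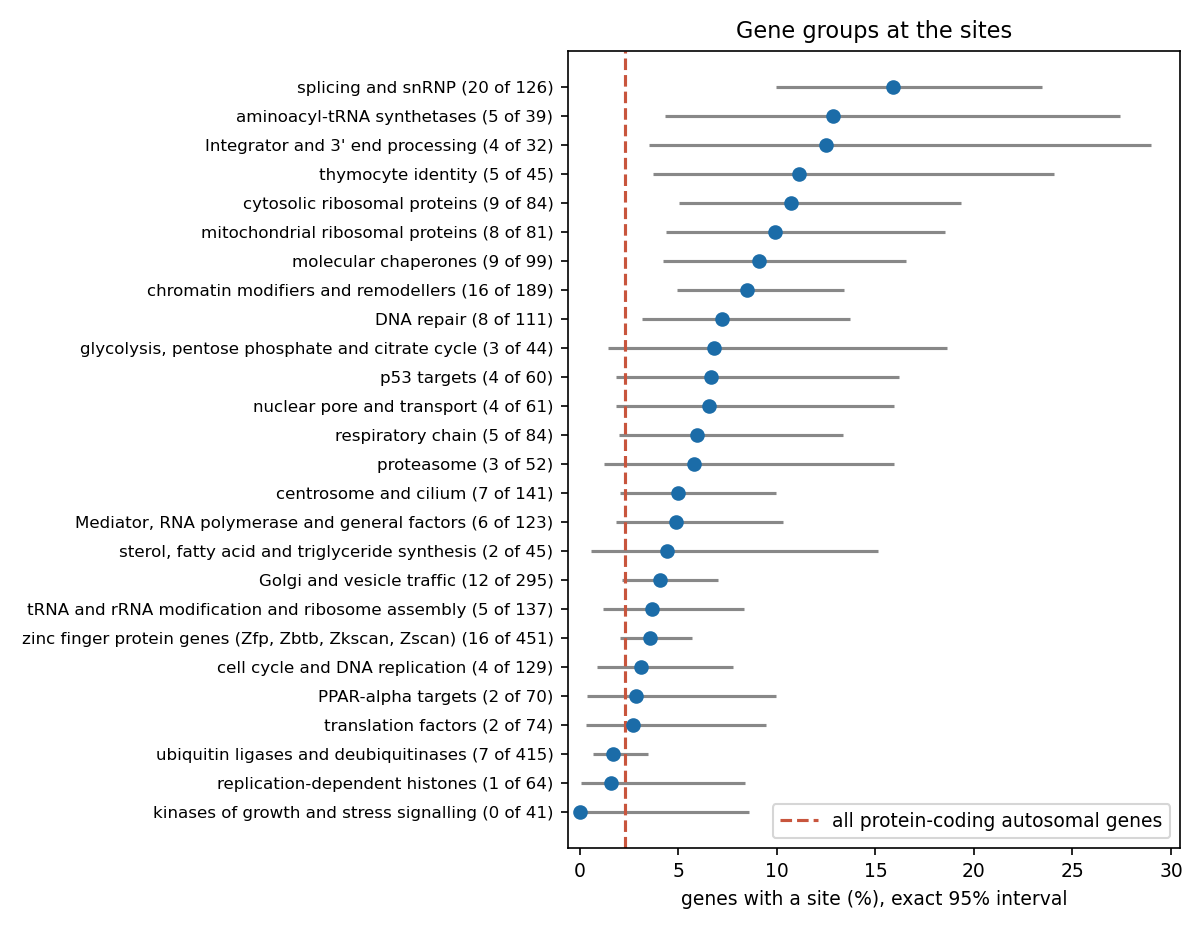
Share of each gene list's members (%) with an end within 1 kb of a site, for the lists of 20 or more genes, with exact 95% intervals as lines and the share over all protein-coding genes of chromosomes 1 to 19 (2.28%) as the dashed line. Splicing genes stand highest at 15.9%, and kinases of growth and stress signalling are at 0.

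Of 60 listed targets of p53, 4 genes had a site (6.67%, 1.85 to 16.2%), where all genes had 2.28%. Of the 11 with a replicate 1 summit that is 36.4% (10.9 to 69.2%), where all such genes had 24.4%, and both intervals held the share over all genes. The genes stood at 3 places: Polh, the Trp53 and Wrap53 promoter, and Trp53inp1. Trp53 encodes p53 itself and Wrap53 its divergent neighbour, and their site scored 3.34, 3.62 and 13.0, with the replicate 1 summit 882 bp downstream of the Trp53 start of the gene table. Trp53inp1, encoding a stress protein induced by p53, scored 3.34, 6.72 and 5.91. Except at Polh, p53 scores at these places were under 7 in both replicates.

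Of 70 listed PPAR-alpha targets 2 had a site (2.86%, 0.348 to 9.94%), close to the 2.28% over all genes. Acaa1a, encoding a peroxisomal thiolase, scored 7.93 and 12.3 for p53 and 4.70 for PPAR-alpha, whose summit lay 459 bp from the farther p53 summit. Txnip, encoding a regulator of glucose uptake, scored 3.34, 4.33 and 13.8. The PPAR-alpha score at Acaa1a equalled its list's median of 4.70, and the replicate 1 score at Txnip lay under its list's median of 3.99. With at most 100 bp between summits neither gene kept a site, and of the p53 targets 1 did.

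The tissue's own genes were present at low scores. Of 45 thymocyte identity genes 5 had a site (11.1%, 3.71 to 24.1%). Cd3e, a subunit of the T cell receptor complex, scored 6.24, 3.62 and 4.13, and Zap70, its kinase, scored 6.24, 5.08 and 3.06. Cd27 scored 4.70, 4.33 and 7.88, and Satb1, a chromatin organiser of thymocytes, scored 3.34, 2.37 and 8.57 at its far end. None of the 5, Cd69 included, was among the 19 sites that reached 10 in all lists. Marker lists of 3 to 7 genes for erythroid cells, adipocytes, thymic epithelium, B cells and myeloid cells had no site and no replicate 1 summit outside runs. Lists this short allow shares of up to 41.0% (thymic epithelium) to 70.8% (erythroid cells), so nothing is read from their lack of sites. With at most 100 bp between summits no thymocyte gene kept a site and 9 splicing genes did, among 128 sites in all.

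The limits of the rule cut through a continuous range. Just inside 1 kb lay Gm20783 at 998 bp, Zscan22 at 984 bp and Chchd5 at 977 bp, and just outside lay Esco1 at 1015 bp and Cd2 at 1047 bp. For the 500 bp between summits, Ndufs4 and 4931408C20Rik stood at 497 bp and Jarid2 at 496 bp, while E2f2 at 504 bp and Hnrnpa0 at 505 bp were left out. Beyond 1 kb of any gene end, 316 of 1485 replicate 1 summits (21.3%) had partners in both other lists, against 392 of 1683 (23.3%) at gene ends.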

How the data were processed

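The authors deposited, for each ChIP library, a list of summits called by their peak caller, each with a score that was read, from its form and range, as a −log10 p- or q-value. No label states this unit. Per the submitters' processing notes the tools were MACS2 2.1.2, Picard 2.9.0 and Bowtie2 2.3.4.2, without roles. Depth is unknown, since read numbers, calling threshold and use of the input were not found in the labels. A human build, GRCh38, is named for mouse tissue. Within 1 kb of a GRCm38.p6 coding gene end lay 49.2%, 49.0% and 42.0% of the 3 lists, and 7.68%, 7.93% and 8.08% after moving by 10 kb, so GRCm38 was used.

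Of 3608 replicate 1 summits, 3597 were on chromosomes 1 to 19, 429 of these lay in runs, and 1683 of the other 3168 lay at a gene end. The gene table has no strand, so starts were taken for the 16457 of 20665 genes with a promoter in the RefSeq sequence table. Site members, gene lists and motifs were chosen with earlier results of these data known. Named genes follow a rule: the 10 best lowest ranks, all p53 and PPAR-alpha targets, up to 4 sites of each other list, and extremes of span, distance and gene number. Sites were found with Python 3.11.15 and pandas 2.3.3, intervals with scipy 1.17.1. The site search was tested on simulated data and found all planted sites. Alternatives changed the summit distance, gene-end distance, run rule, gene set and lowest score. No test was run, because positions chose the sites and PPAR-alpha has 1 library. A gene that the rule names is left out.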

Additional observations from a re-analysis of the deposited data

How the results depend on the processing

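The number of sites was 128 with 100 bp between summits, 227 with 200 bp and 106 with a score of at least 5 in all lists. Leaving out a p53 replicate gave 602 to 693. With 100 bp the share with several genes was 28.1%. It was 24.7% with 2 kb to a gene end, 36.7% with 5 kb and 36.1% with all gene types. Median scores in p53 replicate 1, replicate 2 and PPAR-alpha were 7.93, 7.58 and 7.88 with 100 bp, 6.24, 5.88 and 6.55 with 200 bp, and 8.81, 9.40 and 9.63 with the lowest score of 5. The share at gene starts lay between 94.5% and 97.5% when distances, run rule, gene set, lowest score or replicates were changed, and 16 to 24 of 31 gene lists stood above the share over all genes. The NRF1 share around PPAR-alpha summits was 9.57% in windows reaching 25 bases to each side and 16.2% with 75, both chosen after seeing the data. With 75 bases the intervals of sites and other summits overlapped for replicate 2 (13.1 to 31.4% and 6.94 to 15.7%) and for PPAR-alpha (8.95 to 26.2% and 2.64 to 10.5%). Taking starts from the promoter table, also chosen after seeing the data, turned the median summit position from downstream to upstream: -12 bp in replicate 1, -18 bp in replicate 2 and -8 bp in PPAR-alpha. No paired analysis was possible because PPAR-alpha has a single library. With p53 in 2 libraries and no depth, low sites cannot be separated from calls near the threshold.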
